A study of Mus musculus with 14 samples.

Results

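The genes described here make, remodel and move phospholipids, the lipids that build cell membranes, and cardiolipin, the phospholipid of the inner mitochondrial membrane. The set held 39 genes chosen by name for these roles, each matched to an Ensembl mouse identifier, out of 55471 genes in the count table. They comprised 1 lysophospholipid transporter, 5 acyltransferases of lysophosphatidic acid, 9 acyltransferases of other lysophospholipids, 9 genes of the Kennedy pathway and 4 genes of phosphatidylethanolamine and phosphatidylserine synthesis. A further 7 genes belonged to the CDP-diacylglycerol and cardiolipin branch, and 4 were phospholipases or glycerophosphodiesterases.

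RNA was sequenced from brown adipose tissue, a fat depot that burns lipid to produce heat, of wild-type (WT) males and of males that lack CLSTN3B in adipocytes (AdC3KO). All mice were 10 weeks old and had spent 2 weeks at thermoneutrality, 30 °C. Tissue taken at that point gave 3 libraries per genotype, and tissue taken after a further 6 h at 4 °C gave 4 per genotype. Neither the Cre driver nor the deleted segment was given in the sources used. Whether every library came from its own animal is left unsaid by the labels, and p-values therefore reflect library-to-library spread, part of which may be technical.

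Phospholipids are built from glycerol 3-phosphate by successive acylation to phosphatidic acid, which is turned either into diacylglycerol, for the choline and ethanolamine lipids of the Kennedy pathway, or into CDP-diacylglycerol, for phosphatidylinositol and cardiolipin. Existing phospholipids are remodelled by removal of an acyl chain and its replacement by a lysophospholipid acyltransferase, which sets how saturated a membrane is. Brown adipocytes are packed with mitochondria whose cristae are rich in cardiolipin, and cardiolipin binds respiratory complexes and the uncoupling protein UCP1.

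Clstn3, the targeted locus, had 182 to 228 CPM (counts scaled to 1e6 per library) in WT and 14.8 to 17.3 CPM in AdC3KO at 30 °C, and 969 to 1194 CPM in WT and 53.8 to 77.9 CPM in AdC3KO at 4 °C. Libraries held 19.9 to 29.0 M gene counts (M, units of 1e6 counts). Brown adipocyte markers were present in every library, with Ucp1 at 1381 to 2043 CPM at 30 °C. Elovl3 among them was near the floor there, at 0.425 to 1.05 CPM, against 129 to 322 CPM at 4 °C. Some libraries stood apart in markers of other cells. Summed skeletal muscle markers reached 34.1 to 494 CPM in WT 30 °C library 3, AdC3KO 30 °C libraries 1 and 2, WT 4 °C library 2 and AdC3KO 4 °C library 3, against 1.39 to 3.65 CPM in the other 9. Summed macrophage markers were 492 CPM in WT 4 °C library 4 and 338 CPM in AdC3KO 4 °C library 1, against 186 to 241.4 CPM in the other libraries at 4 °C. Adgre1, Csf1r, C1qa, C1qb and Lyz2 were each highest of their group there. Mrc1 was not (45.3 CPM against 72.3 CPM in WT 4 °C library 1, and 36.5 CPM against 46.9 CPM in AdC3KO 4 °C library 3). Nor was Cd68 in AdC3KO (10.0 CPM against 10.9 CPM in library 2). These libraries are called macrophage-rich below for their sums. Summed endothelial markers were 580 to 791 CPM at 30 °C and 1176 to 1558 CPM at 4 °C, although Tie1 and Emcn among them were lower at 4 °C. In bulk tissue, fewer cells of a type and less RNA per cell cannot be told apart.

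The DNA just before the start of 5 members that rose or fell in the cold in both genotypes is shown first. Each stretch is from RefSeq on GRCm38.p6, runs 5′ to 3′ on the strand of the gene and ends at or just before its start, and capitals mark TGACG on either strand, the core of the cAMP response element. Mfsd2a (chr4:122961189-122961388, minus strand), Lclat1 (chr17:73107785-73107984, plus strand) and Etnk1 (chr6:143167030-143167220, plus strand) rose in the cold in both genotypes. Cds1 (chr5:101764930-101765129, plus strand) and Cds2 (chr2:132262948-132263147, plus strand) fell in both. No annotated exon lies in these stretches, except that the Mfsd2a stretch overlaps an exon of 4933421A08Rik.
Mfsd2a: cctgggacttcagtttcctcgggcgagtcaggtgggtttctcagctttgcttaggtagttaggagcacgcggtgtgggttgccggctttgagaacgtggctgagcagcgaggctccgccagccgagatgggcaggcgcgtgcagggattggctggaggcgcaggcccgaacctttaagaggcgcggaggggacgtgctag
Lclat1: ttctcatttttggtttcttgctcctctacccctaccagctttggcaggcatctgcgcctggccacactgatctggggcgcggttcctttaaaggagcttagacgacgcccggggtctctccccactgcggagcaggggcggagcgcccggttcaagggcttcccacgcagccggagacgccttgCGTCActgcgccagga
Etnk1: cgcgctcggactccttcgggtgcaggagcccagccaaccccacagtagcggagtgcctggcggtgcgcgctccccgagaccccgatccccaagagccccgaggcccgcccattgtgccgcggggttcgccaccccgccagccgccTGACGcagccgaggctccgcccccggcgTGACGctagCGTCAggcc
Cds1: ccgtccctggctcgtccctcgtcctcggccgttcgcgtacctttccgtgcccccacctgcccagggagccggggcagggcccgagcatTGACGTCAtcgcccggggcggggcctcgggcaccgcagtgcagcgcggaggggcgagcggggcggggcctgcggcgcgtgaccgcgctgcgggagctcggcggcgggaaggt
Cds2: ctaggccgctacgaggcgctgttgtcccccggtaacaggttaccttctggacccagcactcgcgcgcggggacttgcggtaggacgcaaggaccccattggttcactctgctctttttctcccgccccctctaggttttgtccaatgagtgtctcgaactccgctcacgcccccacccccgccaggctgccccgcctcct

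The Mfsd2a stretch held no TGACG, Lclat1 held 1 that starts 16 bases before the gene, and Etnk1 held 3 that start 55, 27 and 18 bases before it. In Cds1 the 2 matches overlap and spell the full palindrome TGACGTCA, 112 bases before the start, and in Cds2 there was none. RefSeq promoter windows, which run from 250 bases before a start to 50 after it, matched 34 of the 39 genes by symbol, in 45 windows. TGACG was in 14 of the 45 member windows (31.1%) and in 20.8% of all 32851 windows, and member windows had a median of 23 CpG dinucleotides against 7 in all windows. By gene, it was found for 14 of the 34 matched members, against 23% of all 27025 genes. Among them were 8 of 15 matched members that rose in both genotypes and 4 of 7 that fell in both. The GC box GGGGCGGGG, also sought on both strands, was found for 13 of the 34 matched members and for 12.9% of all genes, and for 4 of the 15 risers and 1 of the 7 fallers. The full TGACGTCA was in 1.79% of all windows and, among members, in Cds1 alone. The other motifs sought were the oestrogen-related receptor element TCAAGGTCA, the E-box CACGTG and the ETS site CCGGAAGT. They were found for 0, 1 and 2 of the 34 matched members, against 0.466%, 8.09% and 4.31% of all genes. A match describes the letters of a window and not a bound site, and a part of any motif in the cold response was not tested.

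**Figure D1:**
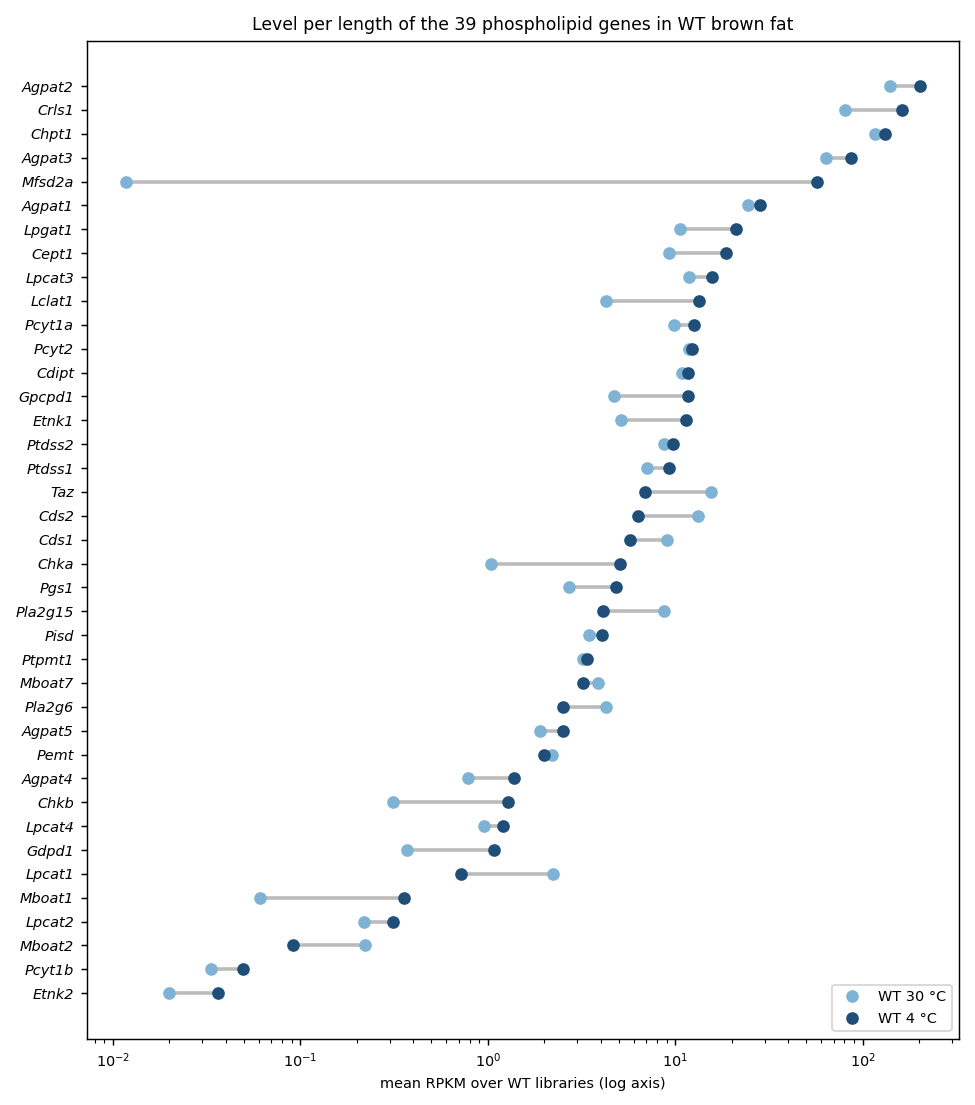
Mean level of the 39 genes in WT brown fat as RPKM, CPM divided by the length of the merged exons in kilobases (log axis), at 30 °C (light, n = 3) and at 4 °C (dark, n = 4), ordered by the level at 4 °C. Mfsd2a moved from the lowest of the 39 levels, 0.0118 RPKM, to rank 5, 57.1 RPKM, while Agpat2, Crls1, Chpt1 and Agpat3 were the 4 highest in both groups.

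Per exon length (RPKM), a few genes stood well above the rest of the set at 30 °C in WT. Agpat2, a lysophosphatidic acid acyltransferase whose loss causes lipodystrophy, stood highest at 140.4 ± 26.8 RPKM (SD, n = 3). Chpt1, the choline phosphotransferase that finishes phosphatidylcholine, followed at 116 ± 11.5 RPKM, with intervals of 1 SD that overlapped those of Agpat2. Crls1, cardiolipin synthase, came next at 80.1 ± 6.45 RPKM, ahead of Agpat3 at 63.6 ± 1.08 RPKM. At the other end, Mboat1, Pcyt1b, Etnk2 and Mfsd2a were each below 0.1 RPKM. At 4 °C, Crls1 had 163 ± 30.7 RPKM in WT and 153 ± 23.8 RPKM in AdC3KO (SD, n = 4 each), a level that overlapped that of Agpat2 in both genotypes.

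Cold changed most of the set. In WT, 27 of the 38 members tested differed between 4 °C and 30 °C at an adjusted p below 0.05 by edgeR's quasi-likelihood test (71.1%), against 61.4% of all 15949 genes tested. Of these, 19 rose and 8 fell, against 30.6% and 30.8% of all genes. The median log2 fold change of the members was 0.39, against -0.03 for all genes, while the median size of the change regardless of direction was 0.70 for both. In AdC3KO, 24 of 38 members differed (63.2%), against 63.0% of all genes, with 17 higher and 7 lower, against 31.0% and 32.1% of all genes. The median member log2 fold change there was 0.26, against -0.06 for all genes. The share called in AdC3KO was thus that of all genes. The libraries of the 2 temperatures did not overlap for 18 higher and 8 lower members in WT (60.3% of all genes did not overlap) and for 16 and 8 in AdC3KO (64.1%).

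The same 17 members rose and the same 7 fell in both genotypes, and none moved in opposite directions. Over all genes, 8856 of 15949 (55.5%) were called in the same direction in both. Lpcat3 and Ptdss1 were called higher, and Mboat7 lower, in WT without being called in AdC3KO, and no difference between the genotypes in these responses was found by the interaction test reported below. Etnk2 had fewer than 10 counts in all 14 libraries and was not tested. Mfsd2a and Mboat1 passed the filter on low counts through the cold libraries, since 0 and 1 of 6 libraries at 30 °C reached 10 counts, so that a rise was the one outcome open to them. The scaling of libraries matters for the smaller rises. With upper-quartile factors in place of TMM the median of all genes became -0.27 in WT and -0.29 in AdC3KO, calls over all genes split into 3640 higher and 6415 lower in WT and 3737 and 6542 in AdC3KO, and 12 and 11 members were called higher. A total of 19 members in WT and 14 in AdC3KO were called in the same direction under every setting in which they were tested, although Chkb in both genotypes and Gdpd1, Mboat1 and Mboat2 in WT were not tested with a minimum mean of 5 CPM.

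**Figure D2:**
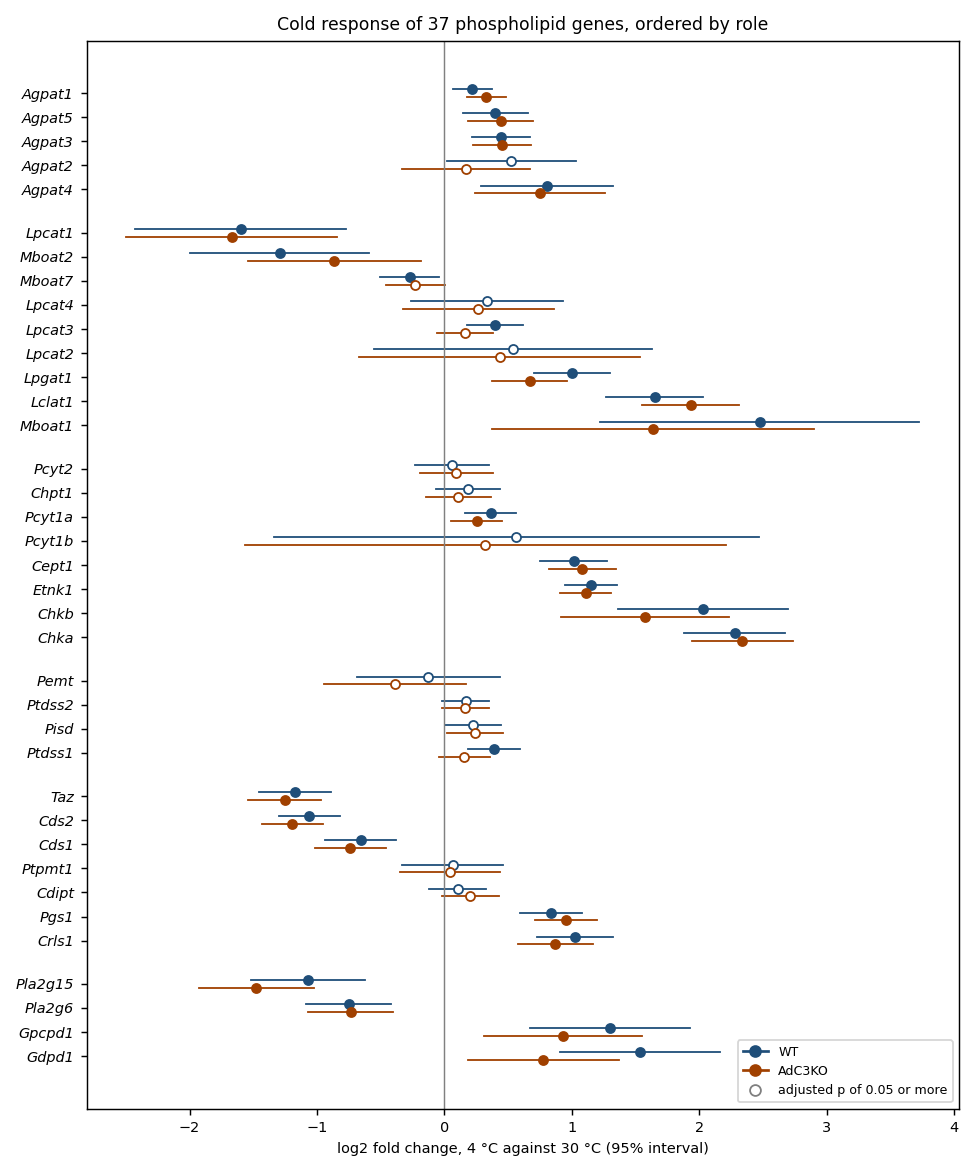
Log2 fold change between 4 °C and 30 °C for 37 members in WT (blue) and AdC3KO (brown), grouped by role, with 95% intervals. Filled points passed an adjusted p of 0.05 in edgeR's quasi-likelihood test. Mfsd2a is left out because its 30 °C groups held 2 and 1 counts, and Etnk2 was not tested.

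Mfsd2a (ENSMUSG00000028655, chromosome 4 from 122946850 to 122961188 on the minus strand) encodes a sodium-dependent carrier of lysophosphatidylcholine, best known for bringing docosahexaenoic acid across the blood-brain barrier. At 30 °C it was at 0 in 2 of 3 WT libraries and in 2 of 3 AdC3KO libraries, and the groups held 2 counts and 1 count in all. At 4 °C it had 83.1, 134, 115 and 181 CPM in the 4 WT libraries and 158, 213, 199.7 and 158 CPM in the 4 AdC3KO libraries. Every cold library was above every library at 30 °C, and the AdC3KO values lay in the upper range of the WT values or above it.

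The ratio of depth-scaled Mfsd2a counts, 4 °C to 30 °C, was 5159 in WT (95% interval 1428 to 42603) and 15279 in AdC3KO (2742 to 603506), with intervals that cover counting error only. Summed endothelial markers, from cells known to express Mfsd2a in brain, were also higher at 4 °C, as given above. Of these markers Tie1 and Emcn were lower there, and the part of endothelial cells in the Mfsd2a values was not tested. By edgeR's quasi-likelihood test the adjusted p was 5.84e-10 in WT and 3.17e-10 in AdC3KO, and the fitted fold changes depend on the prior count. Mfsd2a passed the filter on low counts through its cold libraries alone. A rise was therefore the one outcome open, and these p-values add no support to it. The AdC3KO ratio rests on a single count at 30 °C, and the 2 intervals overlap.

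Members of the lysophosphatidic acid acyltransferase group, which add the second acyl chain on the way to phosphatidic acid, rose by small amounts. In WT, 4 of 5 rose, with log2 fold changes from 0.22 for Agpat1 to 0.81 for Agpat4, and the same 4 rose in AdC3KO, by 0.33 to 0.75. Of all genes, 30.6% rose in WT and 31.0% in AdC3KO. The group's median was 0.44 in both genotypes, against -0.03 and -0.06 for all genes, and none reached 2-fold. Agpat3, the most abundant of them by CPM, had 489, 492 and 505 CPM at 30 °C and 779, 637, 672 and 603 CPM at 4 °C in WT. In AdC3KO it had 521, 476 and 556 CPM at 30 °C and 652, 723, 809.7 and 644 CPM at 4 °C. The groups did not overlap in either genotype, and the log2 fold changes were 0.44 (SE 0.11, adjusted p = 0.00208) in WT and 0.45 (SE 0.11, adjusted p = 0.00175) in AdC3KO.

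Agpat4 averaged 2.12 ± 0.351 CPM at 30 °C (SD, n = 3) and 3.72 ± 0.872 CPM at 4 °C (SD, n = 4) in WT, and one cold WT library, at 2.515 CPM, lay just below the highest at 30 °C, 2.524 CPM. Agpat5 rose by 0.40 in WT and 0.44 in AdC3KO on the log2 scale. With upper-quartile factors none of the 4 was called in either genotype, and Agpat1 turned to a log2 fold change of -0.02 in WT. With no filter on low counts, edgeR lost the WT calls of Agpat1 (adjusted p = 0.374) and Agpat5 (0.0608). That setting also lost the AdC3KO calls of Agpat1 (0.0519) and Agpat4 (0.054). A minimum mean of 5 CPM lost the WT calls of Agpat1 (log2 0.05, adjusted p = 0.53) and Agpat5 (0.096). The Agpat1 call in WT was also lost without WT 30 °C library 1 (adjusted p = 0.0712) or WT 4 °C library 1 (adjusted p = 0.0619), and the Agpat4 call in AdC3KO without AdC3KO 30 °C library 1 (adjusted p = 0.0548). Agpat2 itself did not pass the test: it had 289, 361 and 247 CPM at 30 °C and 599.7, 318, 462 and 341 CPM at 4 °C in WT, with a log2 fold change of 0.52 (SE 0.23, adjusted p = 0.0687), and 0.17 (SE 0.23, adjusted p = 0.54) in AdC3KO. In WT it was called by DESeq2 (adjusted p = 0.0312) and by edgeR without WT 30 °C library 2 (0.0449), AdC3KO 30 °C library 3 (0.0382), WT 4 °C library 2 (0.0338) or 4 (0.0384) or the 2 macrophage-rich libraries (0.0458). Its exons overlap those of Egfl7, an endothelial gene on the opposite strand, and the counts were made with an unstated strand setting. The summed level of the 6 endothelial markers, none of them at 0 in any library, was higher at 4 °C, though Tie1 and Emcn were lower there, and their part in the Agpat2 counts was not tested.

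The 9 lysophospholipid acyltransferases, which give each phospholipid class its acyl chains, went in both directions. In WT, Lclat1, Lpgat1, Mboat1 and Lpcat3 rose and Lpcat1, Mboat2 and Mboat7 fell. In AdC3KO, Lclat1, Lpgat1 and Mboat1 rose and Lpcat1 and Mboat2 fell. Lpcat2 and Lpcat4 were called in neither. Calls covered 77.8% of the group in WT and 55.6% in AdC3KO, against 61.4% and 63.0% of all genes. Of all genes, 30.6% rose and 30.8% fell in WT, and 31.0% rose and 32.1% fell in AdC3KO. The group's median log2 fold change was 0.40 in WT and 0.27 in AdC3KO.

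Lclat1 (ENSMUSG00000054469, chromosome 17 from 73107985 to 73243368 on the plus strand) encodes an acyltransferase of lysocardiolipin and lysophosphatidylinositol. It had 22.3, 19.6 and 20.7 CPM at 30 °C and 45.2, 73.0, 70.8 and 72.7 CPM at 4 °C in WT. The AdC3KO libraries had 22.7, 22.8 and 21.9 CPM at 30 °C and 60.9, 90.4, 92.8 and 99.8 CPM at 4 °C. All cold libraries were above all libraries at 30 °C, and 1 cold library of each genotype lay well below its other 3. The rise was 3.14-fold in WT (log2 1.65, SE 0.18, adjusted p = 1.13e-06) and 3.82-fold in AdC3KO (log2 1.93, SE 0.18, adjusted p = 2.04e-07), with edgeR's quasi-likelihood test.

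Lpgat1, named for acylating lysophosphatidylglycerol, had 73.1, 87.0 and 81.0 CPM at 30 °C and 151, 159, 182 and 149 CPM at 4 °C in WT. AdC3KO values were 96.0, 80.1 and 73.5 CPM at 30 °C and 147, 117, 104 and 160.5 CPM at 4 °C. Neither genotype showed overlap between temperatures. Log2 fold changes were 0.998 (SE 0.14, adjusted p = 1.28e-05) in WT and 0.67 (SE 0.14, adjusted p = 0.000537) in AdC3KO.

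Lpcat1, which makes the saturated phosphatidylcholine known from lung surfactant, fell. It had 11.6, 9.09 and 10.2 CPM at 30 °C and 1.30, 3.30, 2.75 and 6.07 CPM at 4 °C in WT, and 9.45, 9.25 and 10.1 CPM at 30 °C and 4.62, 2.71, 1.47 and 3.20 CPM at 4 °C in AdC3KO. Log2 fold changes were -1.60 (SE 0.39, adjusted p = 0.00242) in WT and -1.67 (SE 0.39, adjusted p = 0.00169) in AdC3KO. The highest cold value of each genotype came from the library with the highest sum of the 7 macrophage markers, all of which were detected in every library. Without those 2 libraries, a setting added after seeing the data, the log2 fold changes were -2.05 and -1.93. Leaving out the highest cold value of each genotype deepens a fall by itself, so these values cannot bear on macrophages. The part of macrophages in the Lpcat1 values was not tested.

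Mboat1 and Mboat2, acyltransferases of lysophosphatidylethanolamine, stood at the low end. Mboat1 went from 0.12 to 0.387 CPM at 30 °C to 0.611 to 2.003 CPM at 4 °C in WT, and from 0.111 to 0.334 CPM to 0.295 to 1.27 CPM in AdC3KO, where the groups overlapped. Its log2 fold change was 2.47 (SE 0.59, adjusted p = 0.00178) in WT and 1.64 (SE 0.60, adjusted p = 0.025) in AdC3KO. Since Mboat1 entered the test through its cold libraries, as given above, these p-values add no support to a rise. The AdC3KO call was lost without AdC3KO 30 °C library 1 (adjusted p = 0.0728), AdC3KO 30 °C library 3 (0.1) or AdC3KO 4 °C library 3 (0.0948). Mboat2 had 2.07, 2.67 and 1.62 CPM at 30 °C and 1.18, 1.10, 0.427 and 0.774 CPM at 4 °C in WT, and 1.90, 2.49 and 1.92 CPM and 1.34, 1.12, 0.782 and 1.35 CPM in AdC3KO, without overlap. It fell by 1.29 in WT (SE 0.33, adjusted p = 0.00296) and by 0.86 in AdC3KO (SE 0.32, adjusted p = 0.0273) on the log2 scale. That second call was lost without AdC3KO 30 °C library 2 (adjusted p = 0.109) or AdC3KO 4 °C library 2 (0.0569) or 3 (0.0803).

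Lpcat3, which puts polyunsaturated chains into phosphatidylcholine and lies 198.2 kb from Clstn3 on chromosome 6, rose in WT from 34.8 to 41.8 CPM at 30 °C to 43.1 to 57.0 CPM at 4 °C (log2 0.40, SE 0.10, adjusted p = 0.00362). That call was lost with upper-quartile factors (log2 0.15, adjusted p = 0.222) and with a minimum mean of 5 CPM (log2 0.22, adjusted p = 0.0648). In AdC3KO the Lpcat3 log2 fold change was 0.16 (SE 0.10, adjusted p = 0.19). Mboat7, which puts arachidonic acid into phosphatidylinositol, had 30.8, 31.5 and 34.7 CPM at 30 °C and 21.3, 28.8, 26.9 and 30.2 CPM at 4 °C in WT. Its AdC3KO values were 35.8, 35.1 and 32.4 CPM at 30 °C and 30.4, 27.2, 31.1 and 28.9 CPM at 4 °C. It had a log2 fold change of -0.27 (adjusted p = 0.041) in WT and -0.23 (adjusted p = 0.0764) in AdC3KO. The WT call for Mboat7 was lost without any of WT 30 °C libraries 1, 2 and 3, AdC3KO 30 °C library 2 and WT 4 °C libraries 1 and 3, with adjusted p-values between 0.0537 and 0.16. In AdC3KO Mboat7 was called lower by edgeR with upper-quartile factors (log2 -0.46, adjusted p = 0.00118) and with a minimum mean of 5 CPM (0.00418). The same held with no filter on low counts (0.0298), with the groups compared only (0.0352) and without WT 4 °C library 1 (0.0338). Lpcat2, an acyltransferase of inflammatory cells, was at 0.391 to 2.28 CPM across all libraries, highest in WT 4 °C library 4, the library with the most macrophage marker counts. Its log2 fold change in WT went from 0.54 to -0.16 without that library, and neither value passed the test. Leaving out the highest value lowers the estimate by itself, and the part of macrophages in the Lpcat2 values was not tested.

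**Figure D3:**
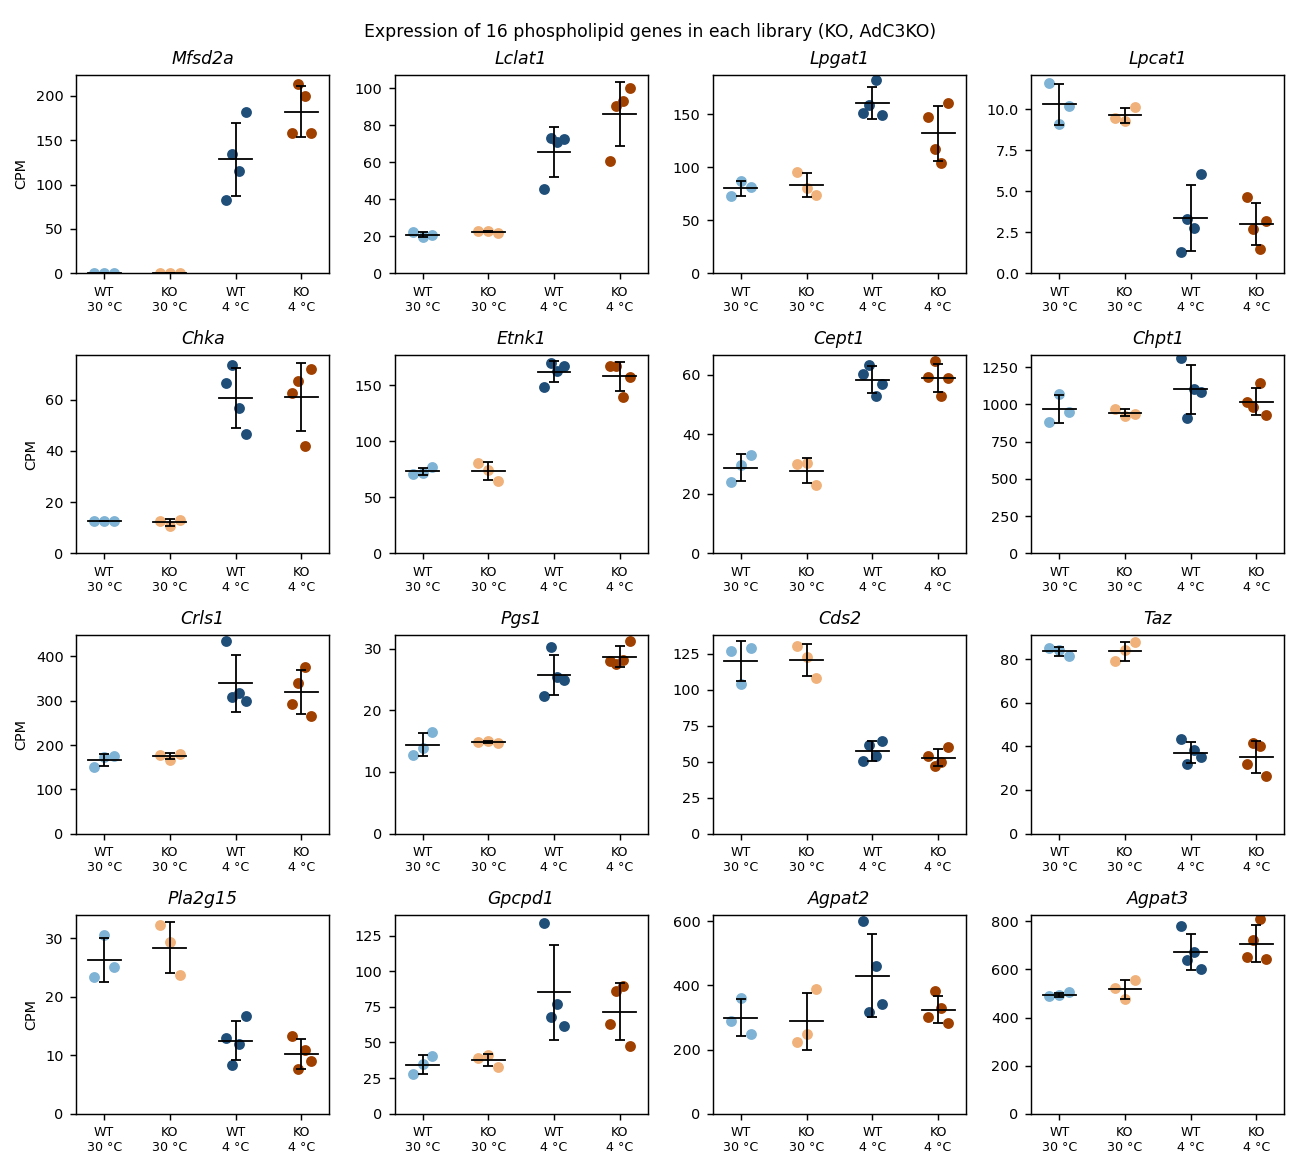
CPM of 16 members in each library (points), with the mean (line) and SD (bar) of each group: WT and AdC3KO at 30 °C (light, n = 3 each) and at 4 °C (dark, n = 4 each). All axes start at 0. For Chka, Etnk1, Cept1, Crls1, Pgs1, Cds2, Taz and Pla2g15 the temperatures do not overlap, while Chpt1 and Agpat2 overlap.

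In the Kennedy pathway, 3 kinases of the first step (Chka, Chkb and Etnk1) and Cept1, the last enzyme for both lipids, rose, while the abundant phosphatidylcholine enzyme Chpt1 did not pass the test. Of 8 members tested, 5 rose and none fell in each genotype, with a median log2 fold change of 0.79 in WT and 0.70 in AdC3KO. That is 62.5% called, against 61.4% of all genes in WT and 63.0% in AdC3KO. Chka (ENSMUSG00000024843, chromosome 19 from 3851773 to 3894369 on the plus strand), choline kinase alpha, had 12.5, 12.6 and 12.5 CPM at 30 °C and 66.4, 73.4, 56.8 and 46.5 CPM at 4 °C in WT. The same gene in AdC3KO had 12.7, 10.6 and 12.9 CPM at 30 °C and 62.7, 67.5, 41.8 and 72.1 CPM at 4 °C. The lowest cold library was more than 3-fold above the highest at 30 °C. The rise was 4.85-fold in WT (log2 2.28, SE 0.19, adjusted p = 5.27e-08) and 5.05-fold in AdC3KO (log2 2.34, SE 0.19, adjusted p = 3.79e-08).

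Chkb, the beta isoform, rose from 0.954 ± 0.177 CPM to 3.92 ± 0.861 CPM in WT and from 1.003 ± 0.0434 CPM to 3.01 ± 1.18 CPM in AdC3KO (SD, n = 3 at 30 °C and 4 at 4 °C). Its exons overlap those of Gm44502 on the same strand, so these counts are uncertain. Etnk1, ethanolamine kinase, had 71.0, 71.4 and 77.2 CPM at 30 °C and 148, 170.3, 163 and 168 CPM at 4 °C in WT. AdC3KO libraries gave 80.8, 74.6 and 64.7 CPM at 30 °C and 168, 167, 139.99 and 158 CPM at 4 °C. Etnk1 rose by 1.15 on the log2 scale (SE 0.09, adjusted p = 3.59e-08) in WT and by 1.11 (SE 0.09, adjusted p = 4.82e-08) in AdC3KO, and the temperatures did not overlap.

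Cept1, the phosphotransferase that finishes both phosphatidylcholine and phosphatidylethanolamine, rose 2.02-fold in WT and 2.12-fold in AdC3KO. It went from 23.8, 29.6 and 33.0 CPM to 60.3, 63.3, 52.7 and 56.9 CPM in WT (log2 1.02, SE 0.12, adjusted p = 2.72e-06). In AdC3KO it went from 30.1, 30.3 and 23.1 CPM to 59.2, 64.7, 53.0 and 58.9 CPM (log2 1.08, SE 0.12, adjusted p = 1.24e-06). Chpt1 had 882 to 1071 CPM at 30 °C and 909.6 to 1311 CPM at 4 °C in WT, and a log2 fold change of 0.19 (95% interval -0.06 to 0.44).

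The enzymes of the middle step, which form CDP-choline and CDP-ethanolamine, differed little. Pcyt1a, the rate-limiting enzyme of phosphatidylcholine synthesis, had 74.2, 68.7 and 76.4 CPM at 30 °C and 101, 93.4, 99.7 and 82.0 CPM at 4 °C in WT, and 72.7, 76.1 and 70.9 CPM and 86.2, 79.9, 81.9 and 101 CPM in AdC3KO. It rose by 0.36 in WT (SE 0.10, adjusted p = 0.0037) and 0.25 in AdC3KO (SE 0.10, adjusted p = 0.0296) on the log2 scale. The AdC3KO call for Pcyt1a was lost without AdC3KO 30 °C library 1 (adjusted p = 0.069) or 3 (0.0912) or AdC3KO 4 °C library 4 (0.114). With upper-quartile factors the Pcyt1a call was lost in WT (adjusted p = 0.283) and in AdC3KO (0.873). It was also lost with a minimum mean of 5 CPM (0.0819 in WT and 0.399 in AdC3KO). Pcyt2, the ethanolamine counterpart, had log2 fold changes of 0.06 (95% interval -0.23 to 0.35) and 0.09 (-0.20 to 0.38). Pcyt1b and Etnk2 were near the limit of detection, at no more than 0.522 and 0.314 CPM in any library.

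Of the roles with several members, phosphatidylethanolamine and phosphatidylserine synthesis had the fewest calls. Of its 4 members 25% were called in WT and 0% in AdC3KO, against 61.4% and 63.0% of all genes. Of Pemt, the methyltransferase from phosphatidylethanolamine to phosphatidylcholine, Pisd, the mitochondrial decarboxylase of phosphatidylserine, and the phosphatidylserine synthases Ptdss1 and Ptdss2, Ptdss1 alone passed, in WT. It had 25.8, 32.3 and 33.2 CPM at 30 °C and 40.3, 39.02, 40.9 and 39.3 CPM at 4 °C (log2 0.39, SE 0.10, adjusted p = 0.00211), a call lost with upper-quartile factors (log2 0.15, adjusted p = 0.175). In AdC3KO the Ptdss1 log2 fold change was 0.16 (SE 0.09, adjusted p = 0.164). Log2 fold changes of the other 3 lay between -0.39, for Pemt in AdC3KO, and 0.24, for Pisd in AdC3KO. Pisd had 18.5, 19.3 and 21.97 CPM at 30 °C and 24.98, 24.98, 22.7 and 20.4 CPM at 4 °C in WT, and 18.01, 21.4 and 20.4 CPM and 22.4, 24.2, 23.8 and 24.01 CPM in AdC3KO. It lay close to the threshold (adjusted p = 0.0747 in WT and 0.0516 in AdC3KO by edgeR). In AdC3KO it was called by DESeq2 (adjusted p = 0.0352), with DESeq2 size factors (0.0434), with the muscle covariate (0.0443), without the 2 macrophage-rich libraries (0.027) and without any 1 of 6 libraries (WT 30 °C 3, AdC3KO 30 °C 2, WT 4 °C 1, 2 and 4, and AdC3KO 4 °C 1, adjusted p from 0.026 to 0.0491). In WT it was called without WT 30 °C library 3 (0.0393), WT 4 °C library 4 (0.0254) or the 2 macrophage-rich libraries (0.0291).

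The branch through CDP-diacylglycerol to cardiolipin split by step, and in the same way in both genotypes. The synthases Pgs1 and Crls1 rose, the CDP-diacylglycerol synthases Cds1 and Cds2 and the transacylase Taz fell, and Ptpmt1 and Cdipt were not called. In each genotype 71.4% of the branch was called, against 61.4% of all genes in WT and 63.0% in AdC3KO. Crls1 (ENSMUSG00000027357, chromosome 2 from 132846666 to 132866785 on the plus strand) joins phosphatidylglycerol and CDP-diacylglycerol into cardiolipin. It had 151, 173 and 176 CPM at 30 °C and 435, 308, 316 and 299 CPM at 4 °C in WT. In the knockout it had 178, 166 and 179 CPM at 30 °C and 292, 341, 377 and 266 CPM at 4 °C. The rise was 2.03-fold in WT (log2 1.02, SE 0.14, adjusted p = 8.82e-06) and 1.83-fold in AdC3KO (log2 0.87, SE 0.14, adjusted p = 4.42e-05).

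Pgs1, which makes phosphatidylglycerol phosphate at the committed step, had 12.8, 13.96 and 16.5 CPM at 30 °C and 22.3, 30.3, 25.5 and 24.97 CPM at 4 °C in WT. In AdC3KO it had 14.8, 15.05 and 14.6 CPM at 30 °C and 28.0, 27.5, 28.2 and 31.3 CPM at 4 °C. All cold libraries were above all libraries at 30 °C, with log2 fold changes of 0.84 (SE 0.12, adjusted p = 1.11e-05) and 0.95 (SE 0.12, adjusted p = 2.47e-06). Ptpmt1, the phosphatase between these enzymes, had log2 fold changes of 0.06 (95% interval -0.33 to 0.46) and 0.04 (-0.35 to 0.44).

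Taz (ENSMUSG00000009995, chromosome X from 74281912 to 74290151 on the plus strand) encodes tafazzin, which remodels cardiolipin and is mutated in Barth syndrome. It had 85.1, 84.4 and 81.3 CPM at 30 °C and 43.2, 31.9, 38.5 and 35.0 CPM at 4 °C in WT. The AdC3KO libraries had 79.1, 84.1 and 87.9 CPM at 30 °C and 31.9, 41.7, 40.4 and 26.4 CPM at 4 °C. The highest cold library was far below the lowest at 30 °C. The fall was 2.25-fold in WT (log2 -1.17, SE 0.13, adjusted p = 1.36e-06) and 2.39-fold in AdC3KO (log2 -1.25, SE 0.13, adjusted p = 5.79e-07).

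Cds2 (ENSMUSG00000058793), the more abundant of the CDP-diacylglycerol synthases per exon length at 30 °C, had 127, 104 and 129 CPM at 30 °C and 50.1, 61.5, 53.7 and 64.6 CPM at 4 °C in WT. AdC3KO values were 131, 123 and 108 CPM at 30 °C and 54.0, 47.1, 49.6 and 60.3 CPM at 4 °C. Log2 fold changes were -1.06 (SE 0.11, adjusted p = 6.09e-07) and -1.19 (SE 0.11, adjusted p = 1.53e-07). Cds1 (ENSMUSG00000029330) fell from 35.9 ± 1.77 CPM to 22.7 ± 2.93 CPM in WT and from 36.4 ± 2.04 CPM to 21.8 ± 4.05 CPM in AdC3KO (SD, n = 3 and 4). Per exon length at 4 °C in WT the Cds1 and Cds2 levels were 5.77 and 6.30 RPKM. Cdipt, which uses CDP-diacylglycerol to make phosphatidylinositol, had log2 fold changes of 0.10 (95% interval -0.12 to 0.33) and 0.20 (-0.02 to 0.42), and was called in AdC3KO without AdC3KO 30 °C library 3 (adjusted p = 0.0331 by edgeR) or the 2 macrophage-rich libraries (0.0476).

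Among enzymes that break phospholipids down, the 2 phospholipases A2 fell and the 2 glycerophosphodiesterases rose. All 4 were called in each genotype, against 61.4% of all genes in WT and 63.0% in AdC3KO. Pla2g15, the lysosomal phospholipase A2, had 23.3, 30.6 and 25.1 CPM at 30 °C and 13.0, 8.38, 12.0 and 16.6 CPM at 4 °C in WT, and 32.2, 29.3 and 23.7 CPM and 13.3, 7.62, 10.9 and 8.93 CPM in AdC3KO. Log2 fold changes were -1.07 (SE 0.21, adjusted p = 0.000416) in WT and -1.48 (SE 0.21, adjusted p = 2.01e-05) in AdC3KO. Pla2g6, a calcium-independent phospholipase A2, fell from 23.2 ± 1.53 CPM to 13.8 ± 2.05 CPM in WT and from 22.8 ± 0.465 CPM to 13.7 ± 3.33 CPM in AdC3KO (SD, n = 3 and 4).

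Gpcpd1, which splits glycerophosphocholine, had 27.5, 35.2 and 40.9 CPM at 30 °C and 134, 68.1, 76.8 and 61.9 CPM at 4 °C in WT. The same gene in AdC3KO had 38.8, 41.1 and 33.1 CPM at 30 °C and 63.0, 86.5, 89.7 and 47.8 CPM at 4 °C. It was the most variable member of at least 10 CPM in both cold groups, with a coefficient of variation of 38.9% in WT and 27.7% in AdC3KO, yet no cold library reached down to the 30 °C range. Log2 fold changes were 1.30 (SE 0.29, adjusted p = 0.00178) and 0.93 (SE 0.28, adjusted p = 0.0127), and the AdC3KO call was lost without AdC3KO 30 °C library 3 (adjusted p = 0.0521). Gdpd1, a lysophospholipase D, had 0.91, 0.837 and 0.844 CPM at 30 °C and 2.42, 2.99, 2.70 and 1.96 CPM at 4 °C in WT, and 1.24, 1.003 and 2.03 CPM and 2.50, 2.80, 1.71 and 2.74 CPM in AdC3KO. The temperatures overlapped in AdC3KO but not in WT. The Gdpd1 log2 fold change was 1.53 (SE 0.29, adjusted p = 0.00028) in WT and 0.77 (SE 0.28, adjusted p = 0.0235) in AdC3KO. The second call was lost without AdC3KO 30 °C library 1 (adjusted p = 0.0866) or 2 (0.12) or AdC3KO 4 °C library 2 (0.0542) or 4 (0.0506).

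WT 4 °C library 1 was at an extreme of its group for several members. It had the highest Agpat2, Agpat3, Chpt1, Crls1 and Gpcpd1 values and the lowest Mfsd2a, Lclat1 and Lpcat1 values of the 4 libraries. It also had the highest summed brown adipocyte markers of the group, 32637 CPM, against 22796 to 26042 CPM in the other 3. Ucp1, Cidea, Elovl3, Adipoq, Plin1 and Fabp4 were each highest of the group there, whereas Prdm16 was lowest, at 15.55 CPM. The part of these marker differences in the member values was not tested.

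Other genes of phospholipid metabolism were counted from lists drawn up around the set. Of 10 genes for the entry of acyl chains and glycerol, 7 rose and none fell in WT, and 7 rose and 1 fell in AdC3KO, with median log2 fold changes of 0.99 and 0.67. The shares called were 70% in WT and 80% in AdC3KO, against 61.4% and 63.0% of all genes. The phosphatase Plpp1 rose by 2.39 in WT and 2.59 in AdC3KO, the glycerol 3-phosphate acyltransferase Gpat4 by 2.03 and 1.87, its mitochondrial counterpart Gpam by 1.83 and 1.89, and the phosphatidate phosphatase Lpin3 by 1.60 and 1.92, all on the log2 scale. Gpat4 averaged 267 ± 52.7 CPM at 30 °C and 1089 ± 131 CPM at 4 °C in WT (SD, n = 3 and 4).

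Of 14 tested genes of mitochondrial phospholipid transport and cardiolipin handling, 5 rose and 1 fell in WT, and 5 rose and 3 fell in AdC3KO, with medians of 0.07 and 0.12. Calls thus covered 42.9% and 57.1% of this list, against 61.4% and 63.0% of all genes. Prelid3b, a carrier of lipid between the mitochondrial membranes, rose by 1.40 and 1.36 (WT and AdC3KO, log2). Hadha, whose protein also acylates monolysocardiolipin, rose by 0.55 and 0.60, and Triap1, a partner of the carriers, by 0.43 and 0.30. The scramblase gene Plscr3 fell by 0.46 and by 0.34.

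Of 22 other phospholipases and lysophospholipases, 6 rose and 8 fell in WT, and 6 rose and 9 fell in AdC3KO, with medians of -0.08 and -0.36. These shares, 63.6% and 68.2%, were near those of all genes, 61.4% and 63.0%. Gdpd5, a glycerophosphodiesterase, had the largest change among them, falling from 27.7 ± 1.55 CPM to 3.75 ± 0.996 CPM in WT (SD, n = 3 and 4), with log2 fold changes of -2.88 and -3.12. Pnpla6, a lysophospholipase of the endoplasmic reticulum, had log2 fold changes of -1.67 and -1.58, and Napepld, which makes N-acylethanolamines, of -1.32 and -1.47. Pla2g12a, a secreted phospholipase A2, rose by 1.45 and 1.65.

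Of 7 ether phospholipid genes, 2 rose and 1 fell in WT, and 3 rose and 1 fell in AdC3KO, with medians of 0.27 and -0.05. This came to 42.9% and 57.1% called, against 61.4% and 63.0% of all genes. Agps, the peroxisomal alkyl synthase, rose by 0.88 and 0.82 (WT and AdC3KO, log2), and Far1, which supplies the fatty alcohol, by 0.75 and 0.75. Gnpat, which acts in the peroxisome just before Agps, had log2 fold changes of -1.06 and -1.17. Of 15 genes of headgroup supply, transport and sphingomyelin exchange, 7 rose and 6 fell in each genotype, with medians of 0.26 and 0.22. In this list 86.7% were called in each genotype, against the same shares of all genes. Phospho1, a phosphatase of phosphocholine and phosphoethanolamine, rose by 2.78 and 2.22, and the sphingomyelin synthases Sgms1 and Sgms2 by 2.53 and 2.60 and by 1.68 and 2.43. Flvcr1, a transporter of choline, had log2 fold changes of -1.94 and -1.81.

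Loss of CLSTN3B was followed by no call among the 38 members tested at an adjusted p below 0.05, at either temperature. At 30 °C, 7 of all genes were called (0.0439%), and at 4 °C 8 (0.0502%). By edgeR, 1 member at 30 °C and 4 at 4 °C had an unadjusted p below 0.05, against 1.33% and 4.80% of all genes, and DESeq2 called 0 members at either temperature, with 1 and 2 below 0.05 unadjusted. The 95% interval of the AdC3KO to WT difference lay within 2-fold in either direction for 33 of 38 members at 30 °C and 34 at 4 °C, and within 1.5-fold for 25 at each. The members with a wider interval were Mfsd2a, Lpcat2, Mboat1, Pcyt1b and Gdpd1 at 30 °C and Lpcat2, Mboat1, Mboat2 and Pcyt1b at 4 °C.

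**Figure D4:**
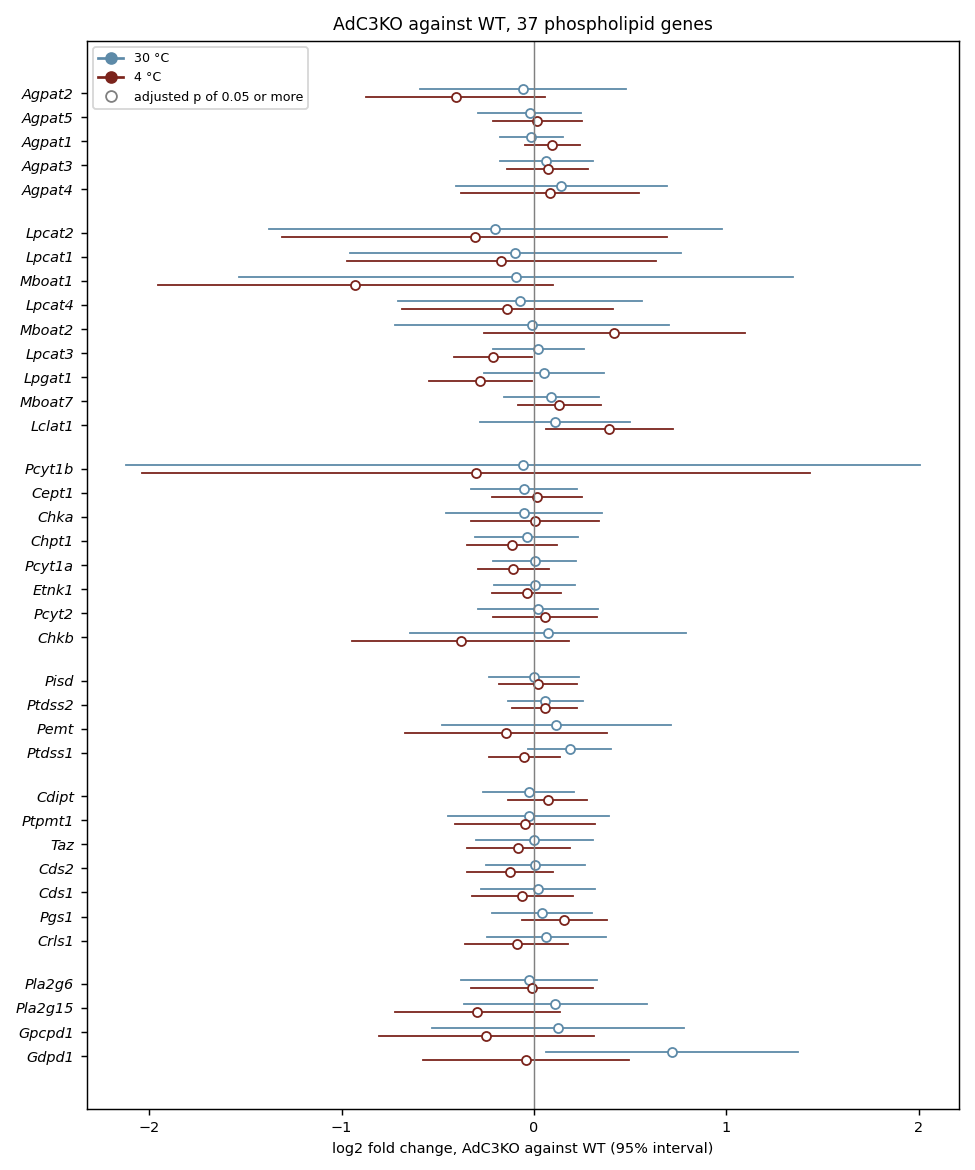
Log2 fold change between AdC3KO and WT for 37 members at 30 °C (light blue) and at 4 °C (dark red), grouped by role, with 95% intervals. Mfsd2a and the untested Etnk2 are left out. All points are open because none passed an adjusted p of 0.05, and most intervals cross 0.

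At 30 °C the members with the smallest unadjusted p were Gdpd1, Ptdss1 and Mboat7. Gdpd1 had 0.837 to 0.91 CPM in WT and 1.003 to 2.03 CPM in AdC3KO, with a log2 fold change of 0.72 (SE 0.31, unadjusted p = 0.0338, adjusted p = 1 by edgeR). Without the AdC3KO library at 2.03 CPM it was 0.38. Ptdss1 had 25.8 to 33.2 CPM in WT and 33.5 to 36.6 CPM in AdC3KO (log2 0.19, SE 0.10, unadjusted p = 0.0857 by edgeR). Gdpd1 and Ptdss1 were the 2 members whose groups did not overlap, while 7.30% of all genes had no overlap. For Mboat7 the log2 fold change was 0.09 (unadjusted p = 0.447 by edgeR).

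At 4 °C the smallest unadjusted p belonged to Lclat1, Mfsd2a and Lpcat3. Lclat1 had a log2 fold change of 0.39 (95% interval 0.06 to 0.72, unadjusted p = 0.0228 by edgeR), with 60.9 to 99.8 CPM in AdC3KO and 45.2 to 73.0 CPM in WT. Mfsd2a had a mean of 182 ± 28.7 CPM in the AdC3KO libraries, and the mean of the WT libraries was 128 ± 41.1 CPM (SD, n = 4 per genotype). Its log2 fold change was 0.50 (95% interval 0.06 to 0.95, unadjusted p = 0.0295 by edgeR). Over the settings tried it ran from 0.37, without WT 4 °C library 1, to 0.78, without the 2 macrophage-rich libraries. Those 2 libraries held the highest WT and the lowest AdC3KO value, and the setting was added after seeing the data. Lpcat3, on the chromosome of the targeted locus, had 42.2 to 45.1 CPM in AdC3KO and 43.1 to 57.0 CPM in WT (log2 -0.21, 95% interval -0.42 to -0.01, unadjusted p = 0.041 by edgeR). The adjusted p was 0.963 for all 3, and the groups overlapped for every member, against 2.26% of all genes without overlap. For Crls1 the difference was -0.09 (95% interval -0.36 to 0.18) and for Taz -0.08 (-0.35 to 0.19).

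The interaction test asked whether the cold response itself differed between the genotypes. None of the 38 members was called, and none had an unadjusted p below 0.05 by edgeR or by DESeq2, and 0% of all genes were called, with 2.19% below 0.05 unadjusted. Gdpd1 came first, with an AdC3KO response minus WT response of -0.76 on the log2 scale (SE 0.40, unadjusted p = 0.0749 by edgeR). It was followed by Ptdss1, at -0.24 (SE 0.13, unadjusted p = 0.0979 by edgeR), and Lpgat1, at -0.33 (SE 0.19, unadjusted p = 0.109 by edgeR). For 26 of 38 members the 95% interval of this difference lay within 2-fold in either direction. Chka, at 0.06 (95% interval -0.47 to 0.58), Crls1, at -0.15 (-0.56 to 0.25), and Taz, at -0.08 (-0.49 to 0.32), were among them, and for Mfsd2a the interval, -3.43 to 6.16, was too wide to compare the genotypes.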

How the data were processed

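TRIzol and RNeasy columns were used to extract RNA, from which NEBNext Ultra II libraries were prepared, per the labels' protocols. The submitters' processing notes name FastQC, Trimmomatic, STAR and HTSeq, and the builds GRCm38 and mm10. Versions, annotation release and strand setting were not given in the sources used, so reads of a gene and of an overlapping gene on the other strand cannot be told apart. The exons of 19 of the 39 members overlap those of such a gene, and those of 2 (Chkb and Pisd) overlap a gene on the same strand.

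The deposited values are whole-number counts per Ensembl gene, not normalised. Summary lines that name no gene entered neither library sizes nor tests. Reads outside genes were 5.95% to 8.19% of a library and ambiguous reads 5.53% to 6.03%. Symbols, coordinates and exon lengths came from GENCODE for GRCm38, which named 55230 identifiers (99.57%).

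The test was edgeR 4.0.16 (R 4.3.3). Its filterByExpr by group (minimum count 10) kept 15949 genes, TMM factors were 0.822 to 1.21, and all 14 libraries entered 1 robust quasi-likelihood fit with a mean per group and a common biological coefficient of variation of 0.20. The quasi-likelihood F-test gave every p for a gene unless DESeq2 is named, with Benjamini-Hochberg adjustment at 0.05 over all tested genes. CPM use the TMM-scaled totals of all gene counts, and RPKM divide CPM by the length of the merged exons. No 2 libraries of a group were alike within sampling noise, and each counted as 1 sample. Intervals on counts reflect counting error alone, as no molecular identifiers are named. The edgeR step was tested on simulated data. For genotype at 30 °C it recovered 29.0% of 1.5-fold and 62.3% of 2-fold changes, and at 4 °C 51.6% and 75.4%. For cold in WT these shares were 32.3% and 68.1%, and in AdC3KO 33.9% and 65.2%. Of 4-fold changes, 91.3% to 97.1% were recovered across these comparisons.

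Alternatives were DESeq2 size factors, upper-quartile factors, DESeq2 1.42.0, other filters on low counts, a fit of the groups compared only, the replicate number as a block, a skeletal muscle covariate, and fits without single libraries, without those holding muscle transcripts or without the 2 richest in macrophage markers. The text accounts for every member. Values per library are given for Mfsd2a and for up to 4 members per role that were called in both genotypes, with some others added where the call depends on single libraries. Genotype comparisons name the 3 members with the smallest unadjusted p, and each further list names up to 4 called genes with the largest change in WT. Members and lists were chosen with earlier results of these data known.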

Additional observations from a re-analysis of the deposited data

Results flagged for a closer look

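In 5 of 78 groups of 4 libraries examined, 1 library stood apart from the other 3 by Dixon's test at the 95% level, which chance passes in about 1 of 20 groups. Groups of 3 were not examined. Lclat1 was lowest in WT 4 °C library 1, at 45.24 CPM against 70.8 to 73.0 CPM in the other 3. Crls1 was highest in the same library, at 434.7 CPM against 298.6 to 316.4 CPM. Cds1 was highest in WT 4 °C library 4, at 27.09 CPM against 20.85 to 21.78 CPM. Lpcat3 was lowest in AdC3KO 4 °C library 1, at 42.15 CPM against 44.84 to 45.09 CPM. Pgs1 was highest in AdC3KO 4 °C library 4, at 31.34 CPM against 27.54 to 28.18 CPM. The causes were not tested.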

How the results depend on the processing

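The count of members called higher in WT was 19 and became 12 with upper-quartile factors and 11 with a minimum mean of 5 CPM, where 29 members were tested. Over all genes, calls higher in WT went from 4879 of 15949 to 3640 and to 3349 of 9692. In AdC3KO the count of members called higher was 17 and became 11 with upper-quartile factors, while that of all genes went from 4937 to 3737. Without the libraries with skeletal muscle transcripts, which left 1 AdC3KO library at 30 °C that is assumed to vary like the others, 14 members were called in AdC3KO in place of 24, and 9 of them higher, while calls over all genes went from 10050 of 15949 to 6589 of 16950. Agpat1 in WT turned from 0.22 to -0.0243 with upper-quartile factors (adjusted p = 0.779 by edgeR). Leaving out single libraries gave 25 to 29 members called in WT and 20 to 26 in AdC3KO. Over all genes these fits called 8957 to 9804 in WT (9787 as reported) and 9225 to 10318 in AdC3KO (10050 as reported). Without the 2 macrophage-rich libraries 29 and 27 members were called, and 9792 and 10111 of 15731 genes. No member was called for genotype or interaction under any setting tried. Over all genes, genotype calls numbered 2 to 10 at 30 °C (7 as reported) and 3 to 21 at 4 °C (8 as reported, 21 with DESeq2), and interaction calls 0, or 1 with the muscle covariate.

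Libraries with the same number did not pair: correlations of their deviations from the group means ran from -0.295 to 0.292. With the replicate block, 27 members were called in WT (19 higher, 8 lower) and 23 in AdC3KO (16 higher, 7 lower). In AdC3KO Pcyt1a was lost (log2 0.24, adjusted p = 0.0701 by edgeR). Calls over all genes with the block numbered 9437 in WT and 9789 in AdC3KO, of 15949. It gave 0 member calls for genotype at 30 °C, at 4 °C and for the interaction. Depth limits Mfsd2a at 30 °C, Mboat1, Pcyt1b and Etnk2, which held few counts.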
